A study of Mus musculus with 20 samples.

Results

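Among 19 single mouse embryos with RNA-seq counts, 8 had the same zygotic Ehmt2 genotype (+/-) and differed in the genotype of the mother, and these 8 embryos are described here. Ehmt2 encodes the histone methyltransferase G9a. Members were chosen by genotype alone, as the labels give it, with no use of measured values: 5 embryos of the labels' maternal KO and zygotic +/- genotype (G9a.mut 2, 3, 6, 8 and 10, here mutants, Ehmt2M/+) and 3 embryos of maternal WT and zygotic +/- genotype (G9a.cntr 1, 3 and 10, here controls). All were collected as 8-cell embryos at E2.5, and each library is 1 embryo. The other 11 embryos were 5 maternal KO, zygotic -/- embryos and 6 maternal WT, zygotic +/+ embryos. In that second pair of groups, the genotypes of mother and embryo change together, which the 8 matched embryos avoid.

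Mutant embryos came from Ehmt2F/- mothers and control embryos from Ehmt2F/+ mothers. Both carried Zp3-Cre, a transgene that recombines the floxed allele in the growing oocyte, so a control oocyte kept 1 functional copy and a mutant oocyte kept none. Fathers were Ehmt2+/-. By this cross the functional copy of a mutant +/- embryo came from the father, whereas that of a control +/- embryo could come from either parent. The mothers and litters of single embryos are not named in the sources used here, so maternal genotype and litter cannot be told apart. Embryos were picked as morphologically normal and were of a mixed genetic background.

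As background, G9a mono- and dimethylates lysine 9 of histone H3 (H3K9me2), a mark of repressed chromatin in euchromatin, and acts as a dimer with the related enzyme GLP, encoded by Ehmt1. Proteins and RNAs stored in the oocyte carry the embryo through its first cleavages, and the embryo's own genome takes over from the 2-cell stage onward. At the 8-cell stage, blastomeres prepare for compaction, build nucleoli with active ribosome production and begin to express regulators of the later trophectoderm, epiblast and primitive endoderm.

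The 8 libraries held between 8231646 and 30053248 counts, and 3 counts in 1 embryo were worth between 0.0998 and 0.364 CPM (counts scaled by the library size with TMM factors). Defining 8-cell genes were abundant in all 8 embryos, with 10 genes such as Dppa3 and Pou5f1 summing to between 4560 and 5796 CPM in controls and between 5439 and 6356 CPM in mutants. Some measured features set control 10 or the mutants apart. Thinned to the lowest total, genes detected numbered 12064, 12772 and 15442 in controls 1, 3 and 10, and 15934, 13204, 14604, 14028 and 12442 in the mutants. Mitochondrial transcripts took 6.47%, 6.67% and 12.9% of the counts in the controls, and between 8.03% and 21.7% in the mutants. On both measures control 10 lay within the mutant range and control 1 below it. The sum of 4 Y-linked genes was 98.1 CPM in control 1, 0.775 CPM in control 3 and 0.535 CPM in control 10, and between 94.9 and 245 CPM in the mutants. By this measure, all 5 mutants and 1 of 3 controls were male. What part these features have in the results was not tested, except where a value is given below.

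The comparison asked what maternal loss of G9a changes in embryos whose own genotype is the same. With all 8 embryos, no gene passed an adjusted p of 0.05 (edgeR quasi-likelihood test, Benjamini-Hochberg adjustment, 15224 genes tested, 0% called). At an unadjusted p under 0.05 there were 682 genes higher in mutants (4.48% of those tested) and 608 lower (3.99%). DESeq2 called 154 genes, 83 higher and 71 lower. The smallest adjusted p was 0.0609, shared by Mrpl21, Gm10244 and Fscn1, all lower in mutants. Single embryos varied widely, with a common biological coefficient of variation of 1.08 over the 19 embryos, and this spread limits which differences 5 and 3 embryos can resolve. Without control 10, 33 of 16001 genes were called (0.206%), 8 higher and 25 lower, and DESeq2 called 977. Control 10 was singled out in earlier results of the same data, so the fit without it is not an independent test. Leaving out any of the other 7 embryos gave 0 calls.

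Reads on Ehmt2 itself (ENSMUSG00000013787, GRCm38 chr17:34898469-34914052) amounted to 132, 139 and 152 CPM in controls 1, 3 and 10. Mutants 2, 3, 6, 8 and 10 had 157, 140, 118, 106 and 77.2 CPM. The groups overlapped, and means were 141 ± 10.2 CPM (SD, n = 3) and 120 ± 30.9 CPM (SD, n = 5). On log2(CPM + 1) the mutants lay below the controls by a difference of -0.28 (exact permutation test, two-sided, p = 0.357, the smallest p possible with 56 arrangements being 0.0357). The edgeR log2 fold change was -0.24 (standard error 0.37, adjusted p = 0.934). Counts cover the whole gene, so reads from an allele that lacks the deleted exons cannot be separated, and the loss rests on the genotype. Ehmt1 had 57.9, 109 and 99.8 CPM in controls and between 32.3 and 125 CPM in mutants (log2 fold change -0.38, edgeR adjusted p = 0.896).

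A scale for placing the 8 embryos was built from the 11 others. In a fit of those 11 alone, 734 of 11820 genes were called (6.21%), 334 higher and 400 lower in maternal KO -/- embryos than in maternal WT +/+ embryos. The mean log2 CPM of these genes was scaled so that the +/+ controls averaged 0 and the -/- mutants 1. These 11 embryos also chose the genes, so their own separation follows in part from that choice. A place of the matched embryos between 0 and 1 can follow from it too. On the higher genes, controls 1, 3 and 10 had positions of 0.298, 0.183 and 0.556. Mutants 2, 3, 6, 8 and 10 had positions of 0.985, 0.993, 0.730, 0.728 and 0.567. On the lower genes, the controls had 0.278, 0.229 and 0.449, and the mutants had 0.996, 1.16, 0.726, 0.784 and 0.610. With TMM factors, all 5 mutants therefore lay above all 3 controls on both sets of genes, none of which had been chosen with these 8 embryos. Control 10 was the highest control and mutant 10 the lowest mutant, and on the higher genes they were separated by less than the distance between controls 1 and 3. With the 50 genes of smallest p in each direction, control 10 (0.533 and 0.561) lay above mutant 10 (0.505 and 0.506). With RLE normalisation, control 10 lay above mutant 10 on the higher genes (0.594 against 0.576). On the lower genes it then lay below mutant 10 (0.409 against 0.615). Full separation of the groups thus depended on the normalisation and on the genes used.

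**Figure D1:**
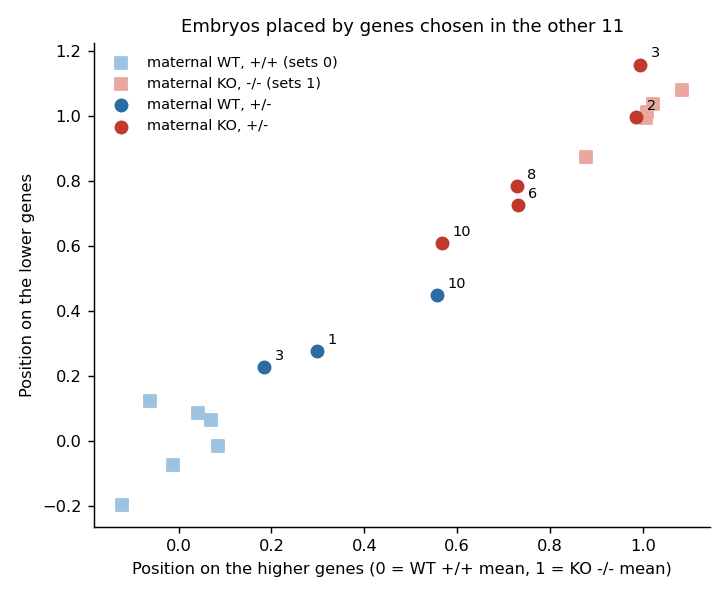
Position of each of the 19 embryos on the genes higher (x axis) and lower (y axis) in the other 11 embryos, where 0 is the mean of the maternal WT +/+ embryos and 1 that of the maternal KO -/- embryos. Squares are the embryos that chose the genes and set the scale, and circles are the 8 matched embryos with their numbers. Control 10 (0.556 and 0.449) sits next to mutant 10 (0.567 and 0.610), between the other controls and the other mutants.

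Gene by gene, the same direction was frequent. Of the 334 genes higher in the other maternal KO embryos, 311 (93.1%) were also higher in the matched mutants, where 52.96% of all tested genes were higher. Their median log2 fold change was 0.73, against 0.07 over all tested genes, and 126 of them (37.7%) had an unadjusted p under 0.05 in that direction, against 4.48% of all tested genes. Of the 400 lower genes, 358 (89.5%) were also lower, with a median of -0.70, and 154 (38.5%) had an unadjusted p under 0.05 in that direction, against 3.99%. In the opposite direction at this p there was 1 gene of the 334 and 0 of the 400. The counts of 126 and 154 were lower without control 3, at 58 (17.4%) and 105 (26.3%), and with the replicate number as a block, at 64 (19.2%) and 97 (24.3%). Over all tested genes, 337 of 16227 were higher and 457 lower at that p without control 3. With the block, 272 of 15224 were higher and 488 lower. Values of the groups did not overlap for 60 of the 334 genes (17.96%, against 2.38% of all tested genes) and for 56 of the 400 (14.0%, against 2.37%). Without control 10, 308 and 327 genes had the same direction, and 139 and 155 had an unadjusted p under 0.05 in it, where 8.32% of all tested genes were higher and 4.5% lower at that p. In the opposite direction there were then 0 of the 334 and 7 of the 400. The pairs of groups share no embryo. They share the normalisation and the estimates of dispersion in the fit of 19, and in a fit of the 8 embryos alone 309 of 331 and 361 of 398 genes had the same direction.

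**Figure D2:**
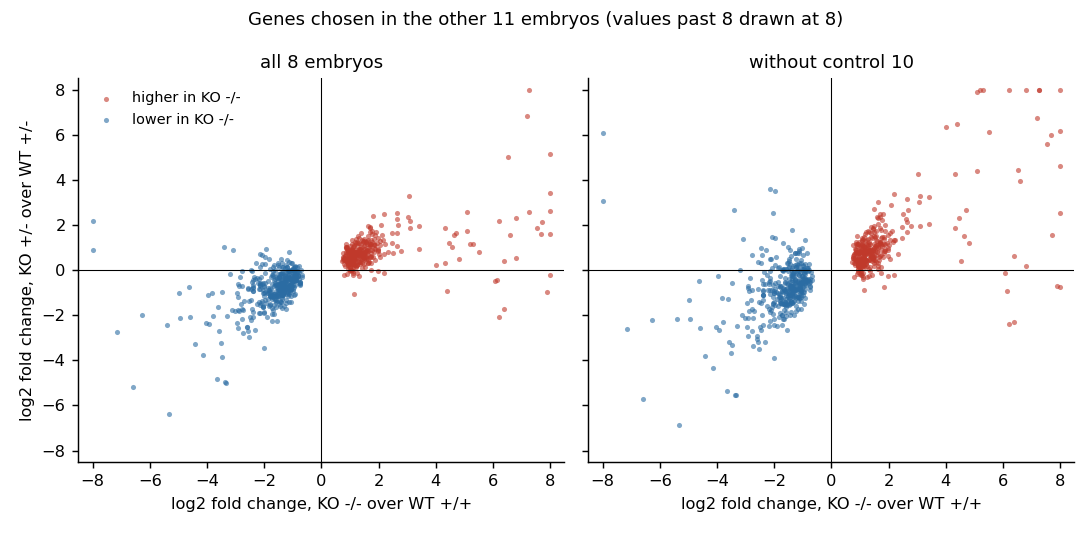
Log2 fold changes of the 734 genes chosen in the other 11 embryos (x axis, maternal KO -/- over maternal WT +/+) and in the matched +/- embryos (y axis), with all 8 embryos (left) and without control 10 (right); points past 8 are drawn at 8. With all 8, 311 of 334 red points lie above 0 and 358 of 400 blue points lie below it.

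Among the 10 genes with the smallest p of those higher in mutants, Usp17lb and Nat1 had 0 counts in every control. The other 8 had log2 fold changes between 1.03 and 2.41, and none of the 10 passed the adjusted test (edgeR adjusted p between 0.241 and 0.317). Aurka, the centrosomal kinase that promotes spindle assembly, stood first. It had 327, 225 and 324 CPM in controls 1, 3 and 10, and 952, 717, 679, 700 and 627 CPM in mutants 2, 3, 6, 8 and 10. Every mutant exceeded every control, control 10 was at the level of control 1, and the log2 fold change was 1.33 (standard error 0.30, edgeR adjusted p = 0.241). Fam98a had 45.7, 59.3 and 80.2 CPM in controls and 184, 124, 95.5, 193 and 273 CPM in mutants. Copb2, a subunit of the COPI vesicle coat, had 85.4, 53.02 and 90.5 CPM in controls and between 114 and 183 CPM in mutants. Rpl10l, a paralogue of the ribosomal protein gene Rpl10, had 81.0, 80.6 and 113 CPM in controls and between 173 and 321 CPM in mutants. Since multi-mapping reads were kept, reads shared between Rpl10l and its near copies cannot be separated. None of these 4 genes overlapped between the groups.

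Klhdc4, Tnpo2 and 1110059E24Rik held control 10 above the other controls. Klhdc4 had 19.03, 16.3 and 39.6 CPM in controls and between 50.2 and 194 CPM in mutants. Tnpo2, a nuclear import receptor, had 4.27, 1.91 and 10.5 CPM in controls and between 13.4 and 49.1 CPM in mutants. 1110059E24Rik had 9.74, 10.0 and 26.7 CPM in controls and 20.1, 88.4, 62.4, 66.5 and 71.7 CPM in mutants, so mutant 2 lay below control 10. Its log2 fold change was 1.99 in these embryos and 0.06 in the other 11. Usp17lb, of a deubiquitinase family with many near-identical copies, had 0 counts in all 3 controls and 2.43, 0.115, 0.0599, 12.1 and 4.34 CPM in mutants. Nat1 had 0 counts in the controls and in mutants 8 and 10, and 7.88, 23.7 and 1.44 CPM in mutants 2, 3 and 6. No fold is given for this pair of genes.

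Among genes lower in mutants, Mrpl21, a protein of the large mitochondrial ribosomal subunit, had the smallest p. It had 111, 98.5 and 40.9 CPM in controls 1, 3 and 10, and 23.3, 23.2, 22.2, 21.1 and 20.3 CPM in mutants. The mutants were within a narrow range below all controls, and the log2 fold change was -1.92 (standard error 0.33, edgeR adjusted p = 0.0609), or -2.25 without control 10 (edgeR adjusted p = 0.00319). Fscn1, which bundles actin filaments, had 169, 214 and 48.2 CPM in controls and 37.4, 23.3, 29.1, 24.0 and 37.5 CPM in mutants (log2 fold change -2.25, edgeR adjusted p = 0.0609). Hmgn1, a nucleosome-binding protein, had 369, 306 and 169 CPM in controls and 82.3, 52.2, 112, 78.1 and 95.9 CPM in mutants (log2 fold change -1.74, edgeR adjusted p = 0.150). In all 3 genes control 10 lay between the other controls and the mutants, and no value of the groups overlapped.

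Rnf126, a ubiquitin ligase, showed control 10 among the mutants. It had 108, 127 and 11.6 CPM in controls and 3.42, 10.5, 14.1, 8.07 and 15.8 CPM in mutants (log2 fold change -2.98, edgeR adjusted p = 0.0624). Pbx3, a homeodomain factor, had 28.2, 30.2 and 2.08 CPM in controls and 0.386, 0.115, 0.898, 1.45 and 0.164 CPM in mutants. Tmem259 had 108, 76.2 and 4.98 CPM in controls and between 1.23 and 6.57 CPM in mutants. Fbxl15 had 58.1, 23.3 and 7.75 CPM in controls and between 1.16 and 3.93 CPM in mutants. Gm10244 had 190, 67.6 and 2.80 CPM in controls and between 1.05 and 4.75 CPM in mutants. Control 10 was also within the mutant range in Tmem259 and Gm10244. In Pbx3 and Fbxl15 it lay above every mutant and below both other controls. In Gm12446 control 10 was at 46.9 CPM, between the 42.0 and 105 CPM of controls 1 and 3, with mutants between 1.84 and 23.5 CPM. Nags, which makes the activator of the urea cycle, had 5.02, 38.9 and 1.76 CPM in controls, and only mutant 10 had any count. Exons of Mrpl21, Gm10244, Fbxl15, Tmem259, Nags and Gm12446, and of Klhdc4 and Tnpo2 among the higher genes, overlap those of another annotated gene, and reads were counted for each gene they overlapped.

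**Figure D3:**
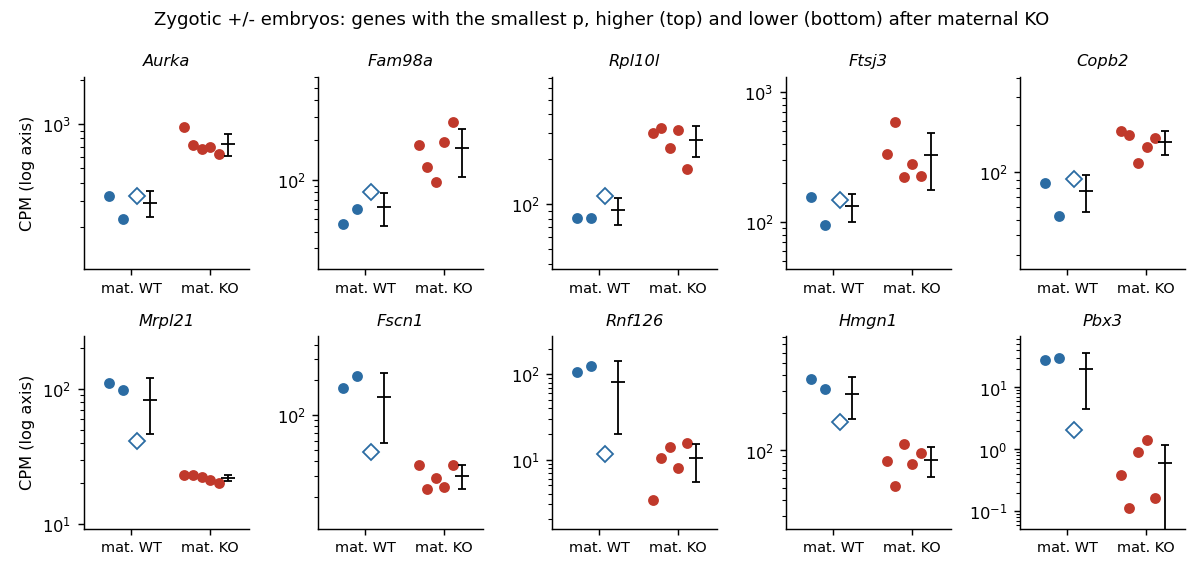
CPM on a log axis of 5 genes higher (top) and 5 lower (bottom) in mutants, with a point for each +/- embryo from maternal WT (blue, 3 embryos, control 10 as an open diamond) and maternal KO mothers (red, 5 embryos) and the mean with its SD in black, the lower bar of Pbx3 ending at the axis. Control 10 is at the level of control 1 in Aurka (324 and 327 CPM) and close to the mutants in Rnf126 (11.6 CPM against 3.42 to 15.8 CPM).

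All 20 of these genes had the same direction in the 11 other embryos, and 15 of them were called there (8 higher, 7 lower) in a comparison that called 655 of 15224 genes (4.3%). Over all tested genes, 63.1% had the same direction in both comparisons. Among the 20 genes, 8 of the higher and 7 of the lower had groups that did not overlap, a count that follows from their choice by p.

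Genes called without control 10 (33, 0.206% of those tested) were picked for a gap between only 2 controls and the mutants, so the place of a further control on them is a description. In log2(CPM + 1), control 10 lay nearer to the mean of the mutants than to that of controls 1 and 3 in 32 of the 33 genes, and within the range of the mutants in 24. Its median position was 0.925 on a scale from 0 at the mean of controls 1 and 3 to 1 at the mean of the mutants. On the genes chosen without any of the 8 embryos, control 10 had positions of 0.556 and 0.449, on the scale from +/+ controls to -/- mutants. Tomm20, a receptor for import into mitochondria, had 491 and 487 CPM in controls 1 and 3, 120 CPM in control 10 and between 86.7 and 228 CPM in mutants. Cox5a, a subunit of cytochrome c oxidase, had 378 and 331 CPM in controls 1 and 3, 35.0 CPM in control 10 and between 34.5 and 142 CPM in mutants. Ube2s, a ubiquitin-conjugating enzyme of the anaphase-promoting complex, had 51.0 and 53.9 CPM in controls 1 and 3, 4.63 CPM in control 10 and between 3.90 and 10.6 CPM in mutants. Hsp90b1, a chaperone of the endoplasmic reticulum, was on the opposite side, with 17.76 and 16.998 CPM in controls 1 and 3, 145 CPM in control 10 and between 73.0 and 158 CPM in mutants. With all 8 embryos, 0 of the 33 were called and 26 had an unadjusted p under 0.05. All 33 had the same direction in the 11 other embryos, and 21 of them were called there.

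CT010467.1, an annotated gene on chromosome 17 that overlaps Gm42418 and AY036118, was among the 33. It had 815, 1649 and 32.4 CPM in controls 1, 3 and 10, and 145, 153, 30.4, 242 and 32.0 CPM in the mutants. The fit without control 10 also shifted the whole distribution: the median log2 fold change of all tested genes was 0.26, against 0.07 with all 8, and 0.05 against 0.04 over genes with a mean of at least 10 CPM. The shift therefore sits in genes of low counts. Medians of gene lists without control 10 are given beside the 0.26 of all tested genes, while 0.05 is the like value for members with a mean of at least 10 CPM.

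Genes for ribosomal RNA processing, the nucleolar factors that cleave, modify and fold the pre-rRNA and assemble the subunits, lay mostly higher in mutants. Of 146 listed genes tested, 0 were called, 42 were higher and 2 lower at an unadjusted p under 0.05 (28.8%, against 4.48% of all tested genes, and 1.37%, against 3.99%). Their median log2 fold change was 0.48, against 0.07 over all tested genes. Values did not overlap between the groups, higher in mutants, for 24 of the 146 genes, where 2.38% of all tested genes did not overlap in that direction. Without control 10 the counts at an unadjusted p under 0.05 were 40 and 2 and the median 0.50. All tested genes then had 8.32% higher, 4.5% lower and a median of 0.26. The count of 42 was 18 without control 3 and 15 with the replicate block. Of all tested genes, 337 of 16227 and 272 of 15224 were higher at that p in these fits, against 682 of 15224 in the main fit. In the 11 other embryos, 33 of these genes were called higher and 2 lower, where 2.41% of all tested genes were called higher and 1.89% lower. Nolc1, a nucleolar chaperone of snoRNPs and RNA polymerase I, had 716, 617 and 1010 CPM in controls 1, 3 and 10, and 1823, 3025, 1303, 1375 and 1114 CPM in mutants (log2 fold change 1.15, edgeR adjusted p = 0.354). Control 10 was the highest control and below every mutant.

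Ftsj3, a methyltransferase needed for pre-rRNA processing, had 155, 95.3 and 148 CPM in controls and 333, 596, 224, 281 and 228 CPM in mutants (log2 fold change 1.32, edgeR adjusted p = 0.278). Ddx47, an RNA helicase of the small subunit pathway, had 156, 104 and 204 CPM in controls and between 279 and 490 CPM in mutants. Nmd3, the export adaptor of the large subunit, had 191, 158 and 232 CPM in controls and between 311 and 522 CPM in mutants. Imp3, a component of the U3 snoRNP, was on the opposite side, with 187, 370 and 46.1 CPM in controls and between 35.2 and 83.1 CPM in mutants, so that control 10 was among the mutants. For Ftsj3, Ddx47 and Nmd3 the groups did not overlap, and control 10 was within the range of the other controls for Ftsj3 and above it, below every mutant, for Ddx47 and Nmd3.

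The upstream sequences of 4 genes that stand for these groups are shown, from 250 bases before to 50 bases after the start of the RefSeq gene (GRCm38.p6), each 5′ to 3′ on the strand of the gene. Capitals mark the ETS letters CCGGAA, searched on both strands (TTCCGG on the other). Aurka (chr2:172370521-172370820, minus strand) is the gene with the smallest p among the higher ones, Nolc1 (chr19:46075597-46075896, plus strand) and Ftsj3 (chr11:106256035-106256334, minus strand) are rRNA processing genes, and Mrpl21 (chr19:3282792-3283091, plus strand) has the smallest p among the lower ones.
Aurka: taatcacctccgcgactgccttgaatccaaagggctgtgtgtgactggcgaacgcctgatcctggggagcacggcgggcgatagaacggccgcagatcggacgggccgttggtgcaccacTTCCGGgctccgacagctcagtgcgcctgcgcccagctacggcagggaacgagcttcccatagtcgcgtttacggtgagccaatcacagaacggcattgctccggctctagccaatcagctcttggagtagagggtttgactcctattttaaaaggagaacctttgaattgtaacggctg
Nolc1: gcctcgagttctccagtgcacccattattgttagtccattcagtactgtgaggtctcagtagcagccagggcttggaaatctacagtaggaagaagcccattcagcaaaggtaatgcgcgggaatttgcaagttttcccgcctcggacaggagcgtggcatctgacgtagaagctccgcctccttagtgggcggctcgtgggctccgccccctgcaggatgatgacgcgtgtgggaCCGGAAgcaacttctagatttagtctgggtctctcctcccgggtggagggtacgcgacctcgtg
Ftsj3: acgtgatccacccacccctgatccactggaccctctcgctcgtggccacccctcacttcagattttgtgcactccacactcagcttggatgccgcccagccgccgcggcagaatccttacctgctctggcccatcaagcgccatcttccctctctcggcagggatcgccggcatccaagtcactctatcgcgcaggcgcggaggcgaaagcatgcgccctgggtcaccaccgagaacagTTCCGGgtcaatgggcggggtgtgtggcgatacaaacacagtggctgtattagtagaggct
Mrpl21: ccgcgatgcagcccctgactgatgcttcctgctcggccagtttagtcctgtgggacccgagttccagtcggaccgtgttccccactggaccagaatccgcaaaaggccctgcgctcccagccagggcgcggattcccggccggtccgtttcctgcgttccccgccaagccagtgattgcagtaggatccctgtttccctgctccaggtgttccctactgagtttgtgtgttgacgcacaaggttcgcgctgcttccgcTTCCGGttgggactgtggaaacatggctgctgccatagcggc
The windows of 7 named genes were read. ETS letters were in 5 of them, the 4 shown and that of Rnf126, and not in those of Hmgn1 and Fscn1. The E-box CACGTG was in 0 of the 7. Of 11125 tested genes with a promoter in the table, 29.8% held the ETS letters and 11.4% the E-box in at least 1 window. For the rRNA processing list, of which 121 genes matched, the shares were 53.7% and 20.7%. For its 34 matched members that were higher at an unadjusted p under 0.05, they were 47.1% and 17.6%. Genes with an unadjusted p under 0.05 held the ETS letters in 31.8% of 510 higher and 24.2% of 480 lower genes, and the E-box in 11.2% and 10.8%. Over all 32851 windows of that length the shares were 14.9% and 7.15%. The match is a description of letters and not of a binding site.

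Machinery for other steps of gene expression differed less from the background. At an unadjusted p under 0.05, 4.48% of all tested genes were higher and 3.99% lower, with a median log2 fold change of 0.07. Without control 10 these shares were 8.32% and 4.5%. Cytosolic ribosomal proteins had 5 of 84 genes higher and 2 lower at an unadjusted p under 0.05, with a median log2 fold change of 0.22 (8 and 4 without control 10). Rpl7a had 82.4, 55.5 and 151 CPM in controls and between 111 and 346 CPM in mutants. Mitochondrial ribosomal proteins had 4 of 77 higher and 4 lower (6 and 8 without control 10), with Mrpl12 at 178, 158 and 81.9 CPM in controls and between 198 and 412 CPM in mutants, opposite to Mrpl21. Splicing factors had 6 of 117 higher (5.13%) and 5 lower (4.27%), with a median of 0.20, and 13 and 4 without control 10. Rnps1, of the exon junction complex, had 47.0, 42.35 and 46.5 CPM in controls and between 53.3 and 136 CPM in mutants, and Sart1, a tri-snRNP factor, had 38.1, 22.4 and 59.8 CPM in controls and between 89.3 and 108 CPM in mutants. Oxidative phosphorylation had 3 of 83 genes higher and 3 lower (median 0.05), Cox5a having the smallest p, and Sdhd, a subunit of complex II, was at 1.96, 3.88 and 12.8 CPM in controls and between 24.6 and 32.5 CPM in mutants. None of the members of these lists was called with all 8 embryos.

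Genes of the cell cycle split in direction. In the mitosis list 11 of 112 genes were higher and 7 lower at an unadjusted p under 0.05 (9.82% and 6.25%, against 4.48% and 3.99% of all tested genes). Aurka and Ube2s led the respective sides, and the median was 0.11. Without control 10 the counts were 16 and 8, where 8.32% of all tested genes were higher and 4.5% lower. Without control 3 the counts were 4 and 3, where 337 of 16227 tested genes were higher and 457 lower. In the DNA replication list 5 of 61 were higher and 1 lower (median 0.22), with 1 higher without control 3. Mcm3, a subunit of the replicative helicase, had 111, 79.7 and 153 CPM in controls and between 185 and 233 CPM in mutants. Orc1, of the origin recognition complex, had 58.2, 41.7 and 52.7 CPM in controls and between 54.9 and 212 CPM in mutants. The groups did not overlap for Mcm3, whereas mutant 6 lay below control 1 for Orc1. Targets of p53 had 0 of 28 genes at an unadjusted p under 0.05 (3 of 29, all lower, without control 10), Ei24 and Gadd45g having the smallest p. Ei24 had 298, 367 and 342 CPM in controls and between 375 and 669 CPM in mutants, and Gadd45g had 0, 11.5 and 6.99 CPM in controls and between 0 and 1.98 CPM in mutants.

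**Figure D4:**
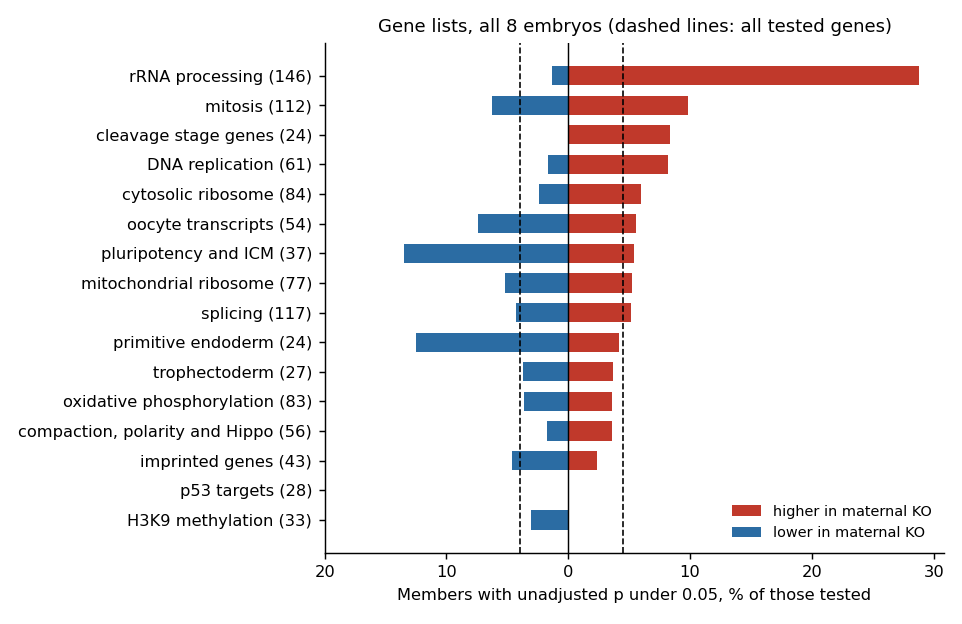
Share of each gene list, in percent of its tested members (number in parentheses), with an unadjusted p under 0.05 and higher (red, right) or lower (blue, left) in mutants, for lists with at least 20 tested members; dashed lines give the shares of all tested genes (4.48% and 3.99%). rRNA processing reaches 28.8% on the higher side, and the pluripotency and primitive endoderm lists reach 13.5% and 12.5% on the lower side.

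Regulators of the blastocyst lineages were described by a fixed list of 10 genes and by 3 larger lists. Fgfr1, the receptor through which FGF4 acts on primitive endoderm precursors, had 191, 104 and 224 CPM in controls 1, 3 and 10, and 73.5, 21.7, 19.5, 51.7 and 16.1 CPM in mutants. Every control exceeded every mutant, control 10 was the highest of all, and the log2 fold change was -2.24 (standard error 0.53, edgeR adjusted p = 0.254). In the 11 other embryos it was -1.71 (edgeR adjusted p = 0.0381). Gata6, which specifies primitive endoderm, had 274, 302 and 654 CPM in controls and 96.3, 33.2, 288, 207 and 117 CPM in mutants (log2 fold change -1.47, edgeR adjusted p = 0.531). Mutant 6 exceeded control 1, and without control 10 the log2 fold change was -0.95. Gata4, a later primitive endoderm gene, had 332, 267 and 191 CPM in controls and between 177 and 337 CPM in mutants. Its log2 fold change was 0.08, and -0.11 without control 10. In the 11 other embryos Gata4 was called higher (edgeR adjusted p = 0.0302). It had 87.7 to 266 CPM in +/+ controls and 234 to 634 CPM in -/- mutants. The difference between the comparisons did not pass for Gata4 (edgeR adjusted p = 0.706). Gata6 was called lower in the 11 other embryos (edgeR adjusted p = 0.0383). In the larger primitive endoderm list 1 of 24 genes was higher and 3 lower at an unadjusted p under 0.05, the last including Amn, at 24.0, 25.9 and 3.40 CPM in controls and between 0 and 3.17 CPM in mutants. Without control 10, 3 of 25 were higher and 2 lower, and the median log2 fold change was 0.35, against 0.03 with all 8. All tested genes also shifted without control 10, with 8.32% higher and 4.5% lower at this p, against 4.48% and 3.99% with all 8. Their median was then 0.26, against 0.07 with all 8.

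Tead4, a trophectoderm specifier that acts downstream of Hippo signalling, had 252, 196 and 149 CPM in controls and 428, 358, 353, 670 and 234 CPM in mutants (log2 fold change 1.04, standard error 0.32, edgeR adjusted p = 0.445). Only mutant 10 lay within the range of the controls, and control 10 was the lowest of all. Tfap2c, which acts upstream of Cdx2, had 169, 176 and 267 CPM in controls and between 252 and 334 CPM in mutants (log2 fold change 0.51, edgeR adjusted p = 0.686). Cdx2, the trophectoderm factor, had 0 counts in the controls and in mutants 3, 6 and 8, with 0.0551 and 1.56 CPM in mutants 2 and 10. In the trophectoderm list 1 of 27 genes was higher and 1 lower at an unadjusted p under 0.05 (3.70% each, against 4.48% and 3.99% of all tested genes). The lower gene was Tfap2a, which had at most 1.13 CPM (in control 10) and 0 counts in all mutants. Without control 10, 5 of 26 were higher and 1 lower, and the median log2 fold change was 0.78, against 0.28 with all 8. Over all tested genes, 8.32% were then higher and 4.5% lower at this p. Their median was 0.26, against 0.07 with all 8. The list for compaction, polarity and Hippo had 2 of 56 higher (3.57%) and 1 lower (1.79%), and 5 and 3 without control 10. Amotl2, an angiomotin, had 5.02, 17.3 and 12.3 CPM in controls and 39.6, 15.0, 209, 348 and 96.7 CPM in mutants.

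Pluripotency and inner cell mass genes had 2 of 37 members higher (5.41%) and 5 lower (13.5%) at an unadjusted p under 0.05, with a median of -0.21. All tested genes had 4.48% higher, 3.99% lower and a median of 0.07. Without control 10 the list had 3 higher, 5 lower and a median of -0.03. All tested genes then had 8.32% higher, 4.5% lower and a median of 0.26. Klf5, a Krüppel-like factor of the early embryo, had 175, 287 and 200 CPM in controls and 72.5, 44.5, 131, 81.5 and 63.8 CPM in mutants (log2 fold change -1.49, edgeR adjusted p = 0.278). Klf4 had 133, 166 and 83.7 CPM in controls and 43.6, 10.7, 37.9, 53.5 and 73.7 CPM in mutants (log2 fold change -1.54, edgeR adjusted p = 0.448). For both factors all controls lay above all mutants, and both were called lower in the 11 other embryos (edgeR adjusted p = 0.0164 and 0.0333). Klf2 had 178, 396 and 188 CPM in controls and between 34.4 and 171 CPM in mutants. Pou5f1, the pluripotency factor Oct4, had 72.3, 59.4 and 115 CPM in controls and between 42.7 and 271 CPM in mutants, and Nanog had 22.8, 30.8 and 50.1 CPM and between 4.75 and 40.9 CPM. The groups overlapped for both (edgeR adjusted p = 0.901 and 0.880), and the sign of the log2 fold change of Pou5f1 turned without mutant 3. Sox2 stayed at or under 0.473 CPM in the 8 embryos. Sox17 had 0, 0 and 14.1 CPM in controls and between 0.0820 and 7.61 CPM in mutants, so the sign of its log2 fold change, -0.85 with all 8 embryos, rests on control 10.

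**Figure D5:**
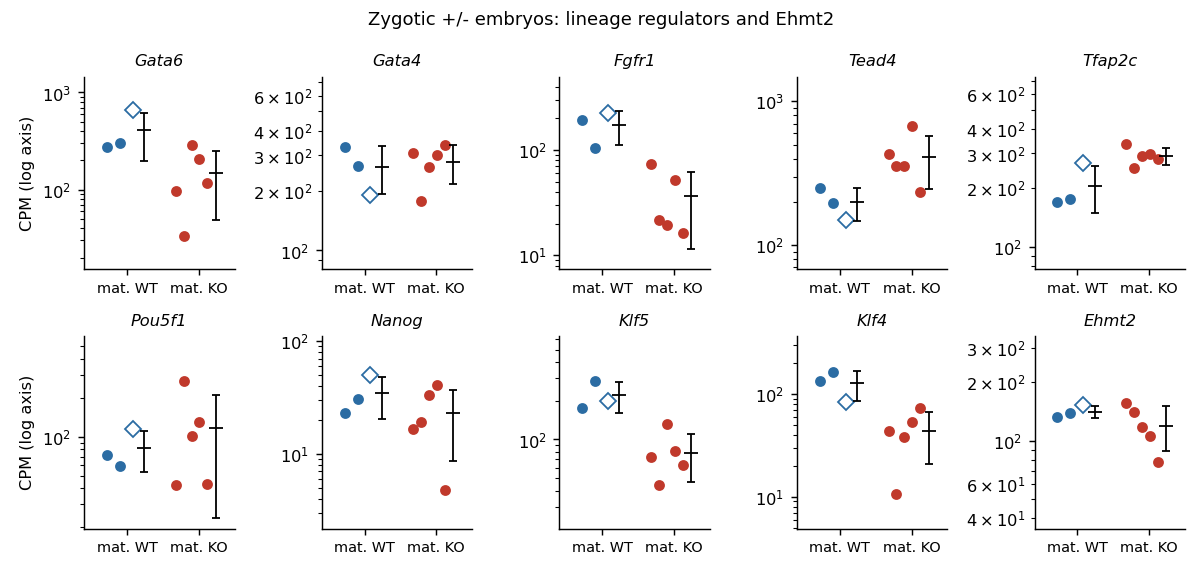
CPM on a log axis of 9 lineage regulators and Ehmt2 in the 8 matched embryos, drawn as in the plot of the genes with the smallest p (blue, maternal WT, with control 10 as an open diamond; red, maternal KO; black, mean and SD). Fgfr1, Klf5 and Klf4 show every control above every mutant, and Ehmt2, Pou5f1, Nanog, Gata4, Gata6, Tead4 and Tfap2c overlap.

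Lists tied to chromatin and to the age of transcripts were set beside the same shares of all tested genes, 4.48% higher and 3.99% lower. Of 33 genes for H3K9 methylation, 0 were higher and 1 lower (3.03%) at an unadjusted p under 0.05. That gene was Zfp644, a zinc finger partner of G9a and GLP, with 147, 149 and 54.9 CPM in controls and 33.5, 5.88, 39.0, 34.4 and 65.7 CPM in mutants, so that control 10 overlapped the mutants. Zfp57, which holds imprints, had 25.0, 16.3 and 5.39 CPM in controls and between 13.9 and 53.9 CPM in mutants. Of 6 H2A variant genes 1 was lower (16.7%), H2afj, at 67.8, 85.0 and 7.75 CPM in controls and between 1.56 and 20.5 CPM in mutants, and H2afy had 21.7, 32.0 and 16.5 CPM in controls and between 0.164 and 14.1 CPM in mutants. Oocyte transcripts had 3 of 54 members higher (5.56%) and 4 lower (7.41%). Omt2b had 8.302, 17.6 and 6.30 CPM in controls and between 33.0 and 341 CPM in mutants, and Oosp1 had 15.4, 24.3 and 8.38 CPM in controls and between 20.6 and 208 CPM in mutants. On the lower side, Khdc3, part of the subcortical maternal complex, had 83.8, 101 and 13.1 CPM in controls and between 1.21 and 47.5 CPM in mutants. A separate set of 6 oocyte markers (Gdf9, Bmp15, Zp1, Zp2, Zp3 and Mos) was lower in every mutant than in every control by its sum. That sum was between 156 and 248 CPM in controls and between 77.2 and 131 CPM in mutants. None of these markers separated the groups alone. Zp3 had 55.1 CPM in control 1 and 61.6 CPM in mutant 6, and Gdf9 had 20.5 CPM in control 10 and between 28.1 and 43.1 CPM in mutants. Cleavage stage genes had 24 of 34 members tested, 2 of them higher (8.33%) and 0 lower. The 2 were Usp17lb, above, and Pou4f2, with 0 counts in the controls and at most 2.05 CPM in a mutant.

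Of 43 imprinted genes tested, 1 was higher and 2 lower (5 and 3 of 46 without control 10). The shares of all tested genes were 4.48% higher and 3.99% lower, and 8.32% and 4.5% without control 10. Cdkn1c, a maternally expressed inhibitor of cyclin-dependent kinases, had 15.1, 34.9 and 8.22 CPM in controls and between 2.65 and 4.92 CPM in mutants, with no overlap. Xist, expressed from the paternal X in female embryos, had 1.44, 80.5 and 94.5 CPM in controls 1, 3 and 10 and between 0.120 and 5.65 CPM in mutants, in the same order as the Y-linked sum sets the sexes. Genes on the X chromosome made up 3.17% of all tested genes, 9.05% of those lower and 1.47% of those higher at an unadjusted p under 0.05. Of 483 X-linked genes 55 were lower and 10 higher, with a median log2 fold change of -0.43. With sex in the model, 21 were lower and 32 higher (median 0.10), and 0 genes were called on any chromosome. Bex1, an X-linked gene, had 59.7, 145 and 68.9 CPM in controls 1, 3 and 10 and 2.37, 2.65, 1.14, 1.32 and 0.574 CPM in mutants (log2 fold change -5.83, edgeR adjusted p = 0.275), and it was chosen after its values were seen, as the gene called in a fit of the 8 embryos alone. Control 1, male by the Y-linked sum, lay below both female controls and above every mutant. In the 11 other embryos its log2 fold change was 0.04, with values between 0.180 and 69.0 CPM in +/+ controls and between 0.156 and 46.2 CPM in -/- mutants.

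Around Ehmt2 on chromosome 17, genes within 5 Mb made up 1.28% of those tested, 1.32% of the higher and 1.81% of the lower genes at an unadjusted p under 0.05. Within 10 Mb the shares were 2.19%, 1.91% and 2.96%. Genes lower in mutants had a median exon length of 3192 bases, higher genes 3256 bases and all tested genes 3498 bases.

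RNA of other cells that can adhere to an embryo was followed by marker lists, although the zona pellucida had been taken off before lysis. Of 27 cumulus cell markers, 11 reached a mean of 1 CPM and 12 were tested. At an unadjusted p under 0.05, 3 of these markers were higher (25%, against 4.48% of all tested genes). Their sum was between 52.3 and 162 CPM in controls, the highest in control 10, and between 63.5 and 307 CPM in mutants. Amhr2, the highest marker of the list (mean 65.4 CPM), was present in all 8 embryos. It had 109, 44.0 and 46.3 CPM in controls 1, 3 and 10 and between 47.3 and 96.7 CPM in mutants. Amh, Fshr, Has2, Ptx3, Foxl2 and Grem1 had 0 counts in all 8 embryos. Cyp11a1, the first enzyme of steroid synthesis, had 0 counts in the controls and in mutants 8 and 10, and 5.84, 29.2 and 3.95 CPM in mutants 2, 3 and 6. Inha, an inhibin subunit, had 36.3 CPM in mutant 3 and at most 2.10 CPM elsewhere. Stromal markers of the list were present in control 10 as well, with Col1a1 at 10.3 CPM, Col1a2 at 17.6 CPM and Col3a1 at 16.2 CPM, where controls 1 and 3 had 0 counts of each. In mutants 2, 3 and 6, Col1a1 had 6.89, 21.3 and 2.64 CPM, and in mutants 8 and 10 the 3 collagens were at or below 0.263 CPM. Vim had 9.57, 3.76 and 52.0 CPM in controls 1, 3 and 10, and 19.02, 117, 5.69, 0 and 0 CPM in mutants. Without control 10, 14 of the 27 markers were tested and 5 were higher at an unadjusted p under 0.05, where 8.32% of all tested genes were higher. Nat1 followed the order of Cyp11a1, being highest in mutant 3 and at 0 counts in mutants 8 and 10, and the part of such cells in the comparison was not tested. Of 16 sperm and spermatid markers, 4 were tested with 0 at an unadjusted p under 0.05, and 9, among them Tnp1, Tnp2 and Prm3, had 0 counts in all 8 embryos. Ldhc and Odf2 had the smallest p of this list, with sums of all 16 markers between 12.0 and 23.9 CPM in controls and between 8.19 and 25.1 CPM in mutants.

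Whether the matched comparison differed from that in the 11 other embryos, in which the embryo's own genotype changes too, was tested by the difference of the log2 fold changes, matched minus other. This difference cannot tell maternal from zygotic genotype. No gene passed (0 of 15224, 0%, edgeR adjusted p of at least 0.658), 1017 genes had an unadjusted p under 0.05, and DESeq2 called 83. The genes with the smallest p were Fmr1nb, Klf10, Oaf, Qsox1 and Pet2. Fmr1nb, X-linked, had 106, 98.5 and 144 CPM in controls and between 30.2 and 82.1 CPM in mutants, against 32.8 to 68.5 CPM in +/+ controls and 59.5 to 194 CPM in -/- mutants. Klf10, a TGF-beta response factor, had 15.3, 28.7 and 49.8 CPM in controls and 52.7, 17.4, 10.1, 45.6 and 164 CPM in mutants, against 29.1 to 108 CPM and 4.45 to 10.99 CPM. Both differences were in opposite directions in the matched and the other embryos, with differences of -2.22 and 3.95 in log2 fold change and an edgeR adjusted p of 0.658 for each. Oaf, Qsox1 and Pet2 stayed at or under 10.6 CPM in every embryo.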

How the data were processed

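cDNA of single 8-cell embryos was amplified with a bias towards the 3′ end and sequenced as single-end 50 bp reads. The authors deposited raw counts per gene and embryo without normalisation. Per the file headers, reads were counted with featureCounts 1.5.0 on exons of Ensembl release 82 (GRCm38/mm10), without a strand setting, with an overlap of at least 10 bases, for every gene a read overlapped and with multi-mapping reads retained. The headers do not name an aligner, and the study's methods name TopHat2 for genes. Of 34937 genes, 34599 had a symbol in the GENCODE M21 table used here. Exons of 33.0% of the tested genes overlap another gene.

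From the counts, edgeR 4.0.16 in R 4.3.3 fitted the 4 groups of 19 embryos together (its filter on low counts, TMM, quasi-likelihood test, Benjamini-Hochberg adjustment, threshold 0.05), and the matched contrast was maternal KO +/- minus maternal WT +/-. Ehmt2 was also compared by an exact permutation test on log2(CPM + 1) in scipy 1.17.1. For the positions, log2 CPM were computed with 2 as the prior count. Totals were between 8231646 and 30053248 counts, so 3 counts in an embryo correspond to between 0.0998 and 0.364 CPM, which covers counting error only. No pair among 171 was identical. Separate cultures or litters are not stated, so p-values measure the spread between these embryos. Control 4 (+/+) has no counts among the files used here and was not analysed here.

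Members, gene lists and tests were chosen with earlier results of these data known. The rule named Ehmt2, Ehmt1, up to 10 genes a direction (those with the smallest p, since none was called), 10 lineage genes, the 2 members with the smallest p in each list, up to 4 genes called without control 10, and the 5 genes with the smallest p for the difference. Bex1, Imp3, Ddx47, Nmd3, Tomm20, Hsp90b1, CT010467.1, Klf2 and Khdc3 were named after their values were seen. Of 885 listed symbols, 13 were not matched. The alternatives were RLE, DESeq2 1.42.0, other filters, the 8 embryos alone, sex as a covariate (males above 1 CPM of Y-linked genes), the replicate block, an added fold threshold (absolute log2 fold change not below 1), other pseudocounts and each embryo left out. Fits that combined DESeq2 or the 8 embryos with the removal of control 10, sex called at 10 CPM, and the counts of genes of the other embryos were added after the data were seen. The scripts were tested on simulated data, where recovery of changed genes was required only with dispersions set below those of these embryos. Promoters came from RefSeq (GRCm38.p6) and were matched by symbol for 11125 of 15159 tested symbols.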

Additional observations from a re-analysis of the deposited data

Results flagged for a closer look

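Of 44 sets of 5 mutant values tested for a single distant embryo by Dixon's ratio, 6 exceeded its 95% critical value, where chance gives about 5% of such sets. In 1110059E24Rik, mutant 2 was the lowest, at 4.40 in log2(CPM + 1), and the other mutants were between 5.99 and 6.48. Cdx2 had its highest value in mutant 10, at 1.35, with the other mutants between 0 and 0.08. The remaining 4 rest on very few counts: Nags in mutant 10 (0.11, others 0), Sox2 in mutant 10 (0.32, others 0), Oaf in mutant 8 (0.12, others 0) and Pet2 in mutant 2 (0.63, others at most 0.06). No explanation was tested for any of them. The groups of 3 controls are too small for this ratio, so the distance of control 10 was not examined by it.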

How the results depend on the processing

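With all 8 embryos, RLE, either sex covariate and a log2 fold change of at least 1 gave 0 called genes. Without a filter on low counts 1 gene was called, with at least 10 counts in each of the 8 embryos 5 (all lower in mutants), in the 8 embryos alone 1, and with DESeq2 154. Leaving out 1 embryo gave 0 to 33 calls, with 33 only without control 10 and 0 without any other. Without control 10, the 8-embryo fit called 7 (3 higher, 4 lower) and DESeq2 977 (796 higher, 181 lower), against 8 higher and 25 lower with edgeR, and the cause of the different split was not tested. Genes with an unadjusted p under 0.05 numbered 1290, 852 when each of the 8 embryos needed 10 counts, 794 to 2052 with 1 embryo left out (794 without control 3, 2052 without control 10) and 2750 with DESeq2 without control 10.

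With the replicate block, 1 gene was called and 760 had an unadjusted p under 0.05. The numbers shared by controls and mutants mark no stated pairing, and deviations of same-numbered embryos from their group means correlated at -0.12 (number 3) and -0.20 (number 10), and 0 of 9 controls correlated best with the mutant of its own number.

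The difference between the comparisons gave 83 calls with DESeq2, 337 with DESeq2 without control 10, and 0 to 1 with 1 embryo left out (1 without control 10). In the fit without control 10, 23 of the 33 called genes were also called in the other embryos, where 672 of 16001 genes were called. The count of 21 given above takes the other embryos from the fit of all 19. With all 8 no gene was called, so there was none to look up. Of the genes chosen in the other embryos, 304 to 316 of the higher and 327 to 375 of the lower kept their direction with 1 embryo left out. The difference in Ehmt2 was -0.22 without control 10, with a smallest possible exact p of 0.0952. All 20 genes with the smallest p kept their direction in every setting in which they were tested.

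Signs turned for 5 genes, and the cause was not tested. Gata4 gave -0.16 with the replicate block, -0.084 in the 8 embryos without control 10, -0.11 with DESeq2 without control 10, and -0.11 to 0.24 with 1 embryo left out (below 0 without control 10 and without mutant 10). Sox2 gave -4.80 to 0.59 with 1 embryo left out (0.59 without control 10) and 0.74 with DESeq2 without control 10. Sox17 gave 2.77 with the block, 1.18 with sex called at 10 CPM, -1.77 to 8.53 with 1 embryo left out (8.53 without control 10), and 8.39 and 8.00 in the 8 embryos and in DESeq2 without it, the values without control 10 being fitted against 0 counts in both other controls. Pou5f1 gave -0.058 to 0.84 with 1 embryo left out (-0.058 without mutant 3). Qsox1 gave -0.51 with the block, -0.091 with sex, and -0.20 to 0.42 with 1 embryo left out (below 0 without control 3 and without mutants 2, 3 and 8).

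In the 11 other embryos 1 mutant had 2.32 CPM of Y-linked genes, between the sexes' ranges, and is called male at 1 CPM and female at 10 CPM. With 3 against 5 embryos, the spread between single embryos limits which differences can be called. Maternal genotype, litter and background cannot be told apart.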
